A study of Mus musculus with 16 samples.

Results

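The 52 genes described here belong to macroautophagy and the lysosome and were listed by function, from the kinases that start an autophagosome to the enzymes that digest its content. Of these, 51 had a probe set with 1 gene symbol on the array, of 19938 genes in all, and all 51 passed the filter on low values; Optn is named only. The samples were hearts of 16 male mice of the C57BL/6 background, 8 to 10 weeks old before surgery, 4 in each of 4 groups. Among the animals, 8 carried the label zbtb17 cKO, for a conditional knockout of Zbtb17, which encodes the transcription factor Miz1, and 8 were controls. Of each genotype 4 had transverse aortic constriction (TAC), a surgical tie around the aortic arch that raises the pressure against which the left ventricle pumps, and 4 had sham surgery, with hearts taken 4 weeks later. The Cre driver, the cells it acts in, the deleted part of Zbtb17 and the alleles of the controls are not given in the sources used here. The comparisons ask how pressure load and the knockout each bear on these transcripts, and whether the response to load differs between genotypes.

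In macroautophagy a double membrane closes around cytoplasm or organelles and fuses with the lysosome, where acid hydrolases break the content down. The ULK1 complex starts the process, the Beclin 1 lipid kinase complex marks the membrane, 2 ubiquitin-like conjugation systems attach LC3 and GABARAP proteins to it, and cargo receptors bind these proteins. Heart muscle cells depend on the pathway to remove damaged mitochondria and proteins. TFEB and TFE3 are transcription factors that act on many genes of the lysosome. Transcript levels of these genes do not measure the flow of cargo through the pathway.

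The arrays gave log2 values for 35556 probe sets, so a difference of 1 is a doubling, and 21333 probe sets passed the filter. The 13 cardiomyocyte markers all passed it, with array means of 12.84 to 13.11, while only 3 of the 12 matched markers of leukocytes other than macrophages did. On 6 arrays an atrial marker, Myl7, was above 6 (6.07 to 8.83, against 4.30 to 5.20 on the other 10), and 3 sham arrays had the immediate early gene Atf3 above 8. High Myl7 was found on replicates 1 and 2 of both TAC groups, on replicate 3 of control sham and on replicate 2 of cKO sham. Values given without these 6 arrays thus rest on replicates 3 and 4 alone in each TAC group. More TAC than sham arrays are left out there, and the precision is lower. Zbtb17 ranged from 6.19 to 6.56 in control and from 6.47 to 6.62 in cKO hearts. It was therefore not lower in the animals labelled cKO; as the deleted part is not given, this probe set does not check the genotype, and every genotype direction here rests on the labels. The samples were separate mice, and the number of 4 per group limits the precision. Fewer cells of a type and less RNA per cell cannot be told apart in this bulk RNA.

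None of the 51 genes passed the test, an adjusted p (limma, Benjamini-Hochberg over the 21333 probe sets, two-sided) under 0.05, in any of the 7 comparisons. Few probe sets of any gene did: 0.0% for TAC against sham in control hearts, 0.0% for TAC against sham in cKO hearts and 0.0% for TAC against sham averaged over genotype. The shares were 0.0234% for cKO against control after sham, 0.00469% after TAC, 0.0188% averaged over surgery and 0.0% for the interaction. The smallest adjusted p of a member was that of Plbd1, 0.0642 (limma), for cKO against control averaged over surgery. The values below therefore describe the genes, and differences given with a p above the threshold are sizes and not calls.

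At an unadjusted p under 0.05 (limma), 10 of the 51 genes differed between cKO and control averaged over surgery, 8 higher and 2 lower, where 14.9% of all probe sets did (8.24% higher and 6.68% lower). For TAC against sham averaged over genotype the count was 5, 3 higher and 2 lower, where 12.0% of all did (7.24% higher and 4.8% lower). In control hearts 6 genes did so with TAC, against 8.32% of all, and in cKO hearts 0 genes, against 6.78% of all. Between genotypes 8 genes did so after sham, against 10.7% of all, and 5 after TAC, against 7.58% of all. For the interaction the count was 2, against 3.7% of all. As shares of 51 these counts were not far from the background, and nothing particular to these genes is read from them. A difference above 0 between cKO and control, averaged over surgery, was found for 35 of the 51 genes, with a median of 0.05, where 48.7% of all probe sets were above 0. Single arrays weigh on this count. Control sham replicate 1 held the lowest of the 16 values for 17 genes, and its mean over the 51 genes was the lowest, at 8.07. The array cKO TAC replicate 1 held the highest value for 12 genes, and its mean was the highest, at 8.32. With TAC in control hearts 33 of 51 genes were above 0, with a median of 0.03, where 54.5% of all were.

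**Figure D1:**
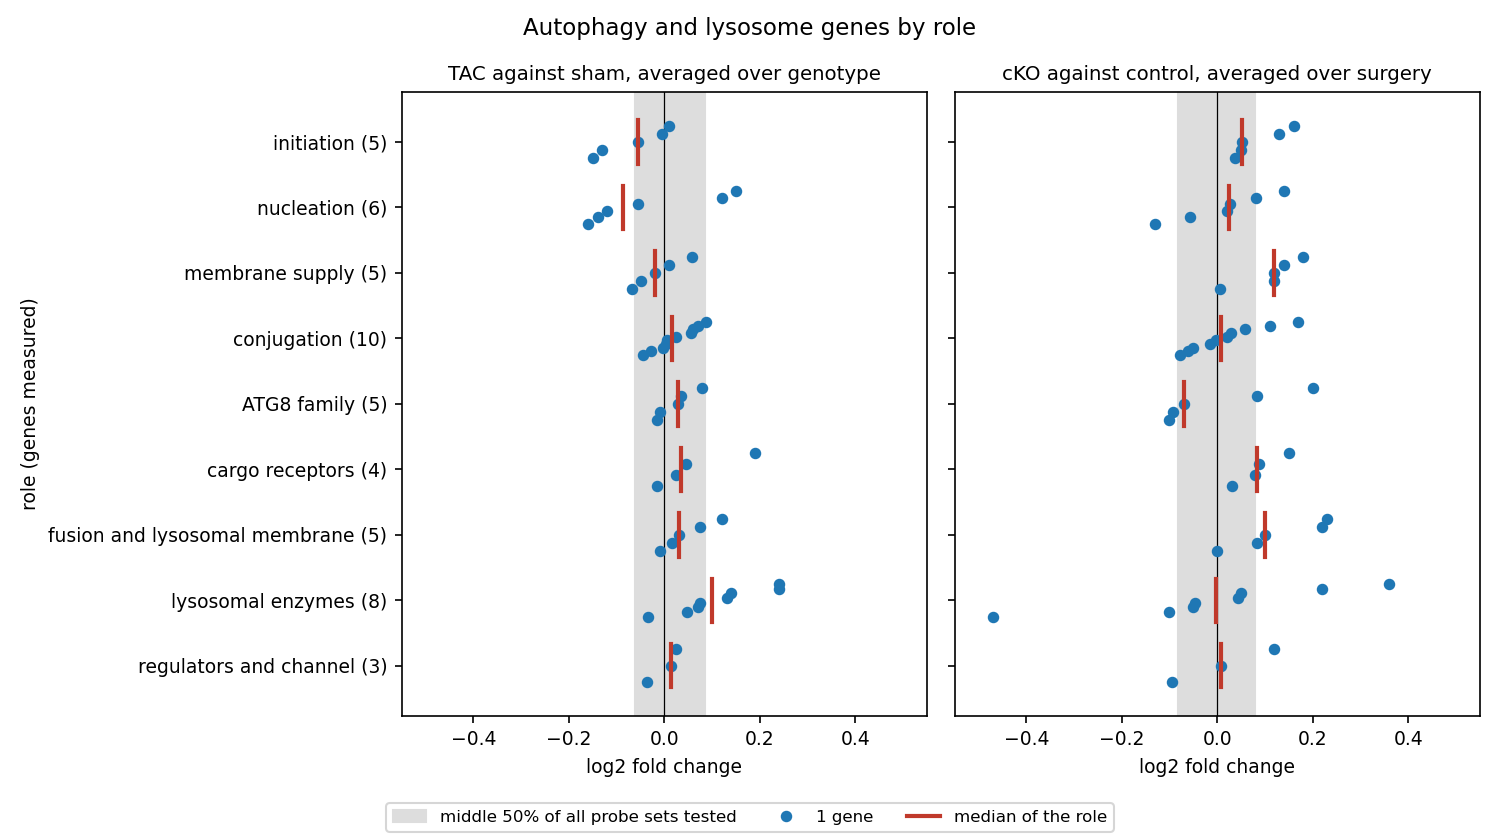
Log2 fold change (horizontal axis) of each of the 51 genes, grouped by role (vertical axis, with the number of genes), for TAC against sham averaged over genotype (left) and cKO against control averaged over surgery (right). Blue points are genes, red bars the median of the role and the grey band the middle 50% of all probe sets tested; the lysosomal enzymes spread widest on the right, from Plbd1 at -0.47 to Gaa at 0.36.

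Of the 5 initiation genes, all were above 0 in cKO against control averaged over surgery, with a median of 0.05, and 4 were without the 6 arrays of high Myl7, with a median of 0.11. Ulk1, the kinase that starts the autophagosome, was at 8.14 ± 0.30 for control sham, 8.00 ± 0.19 for control TAC, 8.18 ± 0.04 for cKO sham and 8.06 ± 0.24 for cKO TAC (mean ± SD over 4 mice each). Its spread in the control sham group came mostly from replicate 1, at 7.70. Rb1cc1 encodes FIP200, the scaffold of the ULK1 complex. On replicates 1 to 4 its log2 values were 7.90, 7.79, 7.79 and 7.93 for control sham, 7.53, 7.74, 7.74 and 7.64 for control TAC, 7.83, 7.91, 7.99 and 8.05 for cKO sham and 7.98, 7.66, 7.78 and 7.91 for cKO TAC. The 4 control TAC arrays lay below the 4 control sham arrays, an order shown by 1.46% of all probe sets, while the cKO groups overlapped. The difference with TAC was -0.19 ± 0.083 (SE, adjusted p = 0.578, limma) in control hearts and -0.15 ± 0.058 (adjusted p = 0.329, limma) averaged over genotype. Ulk2, a relative of Ulk1, was the only member whose groups did not overlap for TAC in cKO hearts, TAC being lower, with a difference of -0.12 ± 0.069 (adjusted p = 0.763, limma), where 2.08% of all probe sets were lower with no overlap.

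Among the 6 genes of the nucleation step, Becn1, the core of the lipid kinase complex, was at 7.16 ± 0.12 for control sham and 7.28 ± 0.10 in control TAC hearts. In cKO hearts it was at 7.18 ± 0.06 after sham and 7.31 ± 0.10 after TAC (mean ± SD over 4 mice each). The difference with TAC averaged over genotype was 0.12 ± 0.057 (adjusted p = 0.406, limma), and it was 0.06 without the 6 arrays of high Myl7. Uvrag, a partner of Beclin 1, gave 0.15 ± 0.064 (adjusted p = 0.365, limma) in the same comparison; in cKO hearts alone it gave 0.18 ± 0.091 (adjusted p = 0.731, limma), and 0.08 without those arrays. Ambra1, which promotes Beclin 1 activity, ran the other way. Its values on replicates 1 to 4 were 7.03, 6.88, 6.99 and 6.95 for control sham, 6.90, 6.74, 6.72 and 6.80 for control TAC, 6.87, 6.74, 6.76 and 6.74 for cKO sham and 6.80, 6.79, 6.50 and 6.76 for cKO TAC. The control sham group was the highest, and all 4 of its arrays lay above the 4 cKO sham arrays. The difference between genotypes was -0.18 ± 0.078 after sham (adjusted p = 0.422, limma), where 2.32% of all probe sets were lower with no overlap, and the difference with TAC in control hearts was -0.17 ± 0.078 (adjusted p = 0.594, limma). Both comparisons share the control sham arrays.

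The 5 membrane supply genes, which recognise the growing membrane or bring lipid to it, were all above 0 in cKO against control averaged over surgery, with a median of 0.12. After sham 4 of the 5 were above 0, with a median of 0.18, and without control sham replicate 1, whose mean over these genes was the lowest of the 16 arrays, 3 were, with a median of 0.026. Averaged over surgery 4 were above 0 without that array, with a median of 0.091. Atg2b, a lipid transfer protein, was at 6.74 ± 0.20 for control sham and 6.97 ± 0.07 in cKO sham hearts (mean ± SD over 4 mice each). That difference was 0.23 ± 0.10 (adjusted p = 0.443, limma) and was 0.13 without replicate 1 of the control sham group, which was the lowest of the 16 arrays at 6.45. Atg9a, the membrane protein of the vesicles that seed the autophagosome, differed by 0.20 ± 0.089 after sham (adjusted p = 0.455, limma). Wipi1, which binds the lipid made by the Beclin 1 complex, differed by 0.19 ± 0.085 after TAC (adjusted p = 0.642, limma), and by 0.10 without the 6 arrays of high Myl7.

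The 10 conjugation genes serve the attachment of LC3 and GABARAP proteins to lipid, and they split evenly between genotypes, 5 above and 5 below 0, with a median of 0.01 averaged over surgery. Atg5 ranged from 5.93 to 6.51 over the 16 arrays and Atg7, the activating enzyme, from 6.33 to 6.74. Their group means spanned 6.27 to 6.37 and 6.48 to 6.63. Atg12, the protein joined to Atg5, was at 6.22, 6.2, 6.14 and 6.21 on the control sham arrays and at 6.26, 6.37, 6.29 and 6.43 on the cKO sham arrays. These groups did not overlap, which held upward for 2.95% of all probe sets. After TAC the values were 6.00, 6.35, 6.22 and 6.34 in control and 6.56, 6.46, 6.27 and 6.36 in cKO hearts, and these overlapped. Averaged over surgery the difference was 0.17 ± 0.062 (adjusted p = 0.238, limma), and 0.08 without the 6 arrays of high Myl7. Atg4a, a protease that prepares proteins of the LC3 and GABARAP family, differed by 0.18 ± 0.08 after sham (adjusted p = 0.447, limma). Atg10, which joins Atg12 to Atg5, had an interaction of -0.23 ± 0.12 (adjusted p = 1.0, limma), and -0.15 without cKO TAC replicate 2.

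Of the 5 ATG8 genes, which encode the proteins that coat the autophagosome, Map1lc3b (LC3B) had its highest values in control TAC hearts. Its log2 values were 10.31, 10.49, 10.49 and 10.47 for control sham, 10.57, 10.47, 10.75 and 10.69 for control TAC, 10.42, 10.45, 10.41 and 10.49 for cKO sham and 10.56, 10.39, 10.39 and 10.34 for cKO TAC. The control TAC arrays overlapped with both groups they are compared with. TAC against sham in control hearts gave 0.18 ± 0.07 (adjusted p = 0.535, limma), against -0.02 ± 0.07 in cKO hearts (adjusted p = 0.972, limma). The test of that difference, the interaction, gave -0.20 ± 0.10 with an unadjusted p of 0.0573 (limma; adjusted p = 1.0). Without the 6 arrays of high Myl7 the value in control hearts was 0.30 and the interaction -0.37. Map1lc3a (LC3A) was at 10.17 ± 0.07 and 10.25 ± 0.05 in control and 10.19 ± 0.11 and 10.09 ± 0.19 in cKO hearts after sham and TAC. Gabarap had the smallest spread within groups of all 51 genes, an SD of 0.0639, where the median of the members was 0.12 and that of all probe sets 0.155. Its 4 cKO TAC arrays, at 12.24, 12.24, 12.15 and 12.19, lay above the 4 control TAC arrays, at 12.07, 12.09, 12.03 and 12.10, as 2.38% of all probe sets did. The difference was 0.13 ± 0.052 (adjusted p = 0.612, limma).

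Of the 4 cargo receptors measured, all were above 0 in cKO against control averaged over surgery, with a median of 0.08. The median was 0.055 without control sham replicate 1, and 3 of the 4 were above 0 without cKO TAC replicate 1, with a median of 0.045. Nbr1 binds ubiquitin-tagged cargo. Its values were 8.55, 8.74, 8.62 and 8.89 for control sham, 8.67, 8.78, 8.81 and 8.74 for control TAC, 8.85, 8.87, 8.95 and 8.83 for cKO sham and 8.92, 8.83, 8.85 and 8.89 for cKO TAC. All cKO TAC arrays lay above all control TAC arrays, as 2.38% of all probe sets did. Among the sham arrays only control replicate 4, at 8.89, reached the cKO range. The difference averaged over surgery was 0.15 ± 0.051 (adjusted p = 0.211, limma). Sqstm1 (p62), the best known receptor of this kind, was at 10.47 ± 0.34 and 10.43 ± 0.15 in control and 10.48 ± 0.04 and 10.60 ± 0.16 in cKO hearts after sham and TAC. Its low control sham value was replicate 1, at 9.97.

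Bnip3 and Bnip3l are receptors of the outer mitochondrial membrane for mitophagy. The Bnip3 probe set of the highest mean gave 10.28, 10.36, 10.33 and 10.11 for control sham and 10.49, 10.75, 10.67 and 10.51 in control TAC hearts, groups that did not overlap, as 2.27% of all probe sets did upward. In cKO hearts it gave 10.43, 10.25, 10.67 and 10.64 after sham and 11.07, 10.56, 10.14 and 10.38 after TAC. The cKO TAC group held both the highest value of the 16 arrays and one near the lowest. The difference with TAC was 0.34 ± 0.15 (adjusted p = 0.594, limma) in control hearts and 0.04 ± 0.15 (adjusted p = 0.977, limma) in cKO hearts, and the interaction was -0.29 ± 0.21 (adjusted p = 1.0, limma). The value in cKO hearts took the opposite sign without cKO TAC replicate 1, at -0.14, without cKO sham replicate 2, at -0.043, and without the 6 arrays of high Myl7, at -0.32.

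A second Bnip3 probe set gave a partly different picture. It was at 9.31, 9.30, 9.12 and 9.15 for control sham, 9.30, 9.65, 9.79 and 9.74 for control TAC, 9.52, 9.51, 9.73 and 9.58 for cKO sham and 10.23, 9.86, 9.61 and 9.57 for cKO TAC. Here the 4 control sham arrays lay below all 8 cKO arrays. Between the sham groups alone, 2.95% of all probe sets were higher in cKO with no overlap. The share for the order against all 8 is not given here. The difference between genotypes was 0.36 ± 0.13 after sham (adjusted p = 0.384, limma), against 0.23 ± 0.15 (adjusted p = 0.604, limma) with the first probe set. The difference with TAC was 0.40 ± 0.13 in control hearts (adjusted p = 0.497, limma). In cKO hearts it was 0.23 ± 0.13 (adjusted p = 0.761, limma), and the interaction was -0.17 ± 0.19. Averaged over surgery, cKO against control was 0.28 ± 0.093 with the second probe set (adjusted p = 0.202, limma). The first probe set gave 0.08 ± 0.11 there (adjusted p = 0.755, limma). The 10 probe sets next to the second one by number map to the chromosome of Bnip3, 7, and those next to the first map to chromosome 14; whether the first reads another locus was not tested. The probe sets used for Atg4a, Gabarapl2 and Bnip3l likewise had neighbours of another chromosome than the gene's. For Gabarapl2 the probe set among neighbours of its own chromosome, 8, had a mean of 4.30 and did not pass the filter. The Gabarapl2 values here thus rest on the other probe set, and whether that one reads another locus was not tested.

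**Figure D2:**
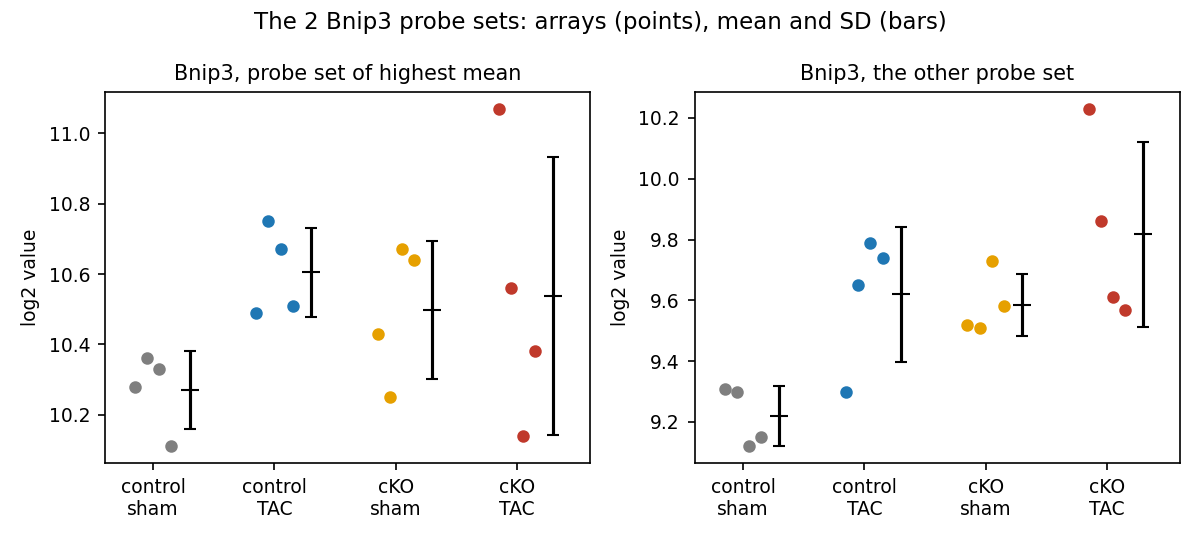
Log2 values (vertical axes) of the Bnip3 probe set of highest mean (left) and of the other Bnip3 probe set (right) on each array (points) with the mean and SD of each group (bars, 4 mice each). On the right the 4 control sham arrays, at 9.12 to 9.31, lie below all 8 cKO arrays, at 9.51 to 10.23. Between the sham groups alone, 2.95% of all probe sets are higher in cKO with no overlap. On the left the control sham arrays overlap with both cKO groups.

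The 5 genes of fusion and the lysosomal membrane were above 0 in 4 cases and at 0 in 1 in cKO against control averaged over surgery, with a median of 0.10. Vamp8, a SNARE protein of the fusion of autophagosome and lysosome, was at 7.97, 7.75, 7.55 and 7.99 for control sham, 8.16, 7.86, 7.85 and 7.90 for control TAC, 7.88, 8.13, 8.17 and 8.18 for cKO sham and 8.23, 8.22, 7.94 and 8.06 for cKO TAC. In each surgery group 1 array broke the order between genotypes, cKO replicate 1 after sham and control replicate 1 after TAC. The difference was 0.28 ± 0.11 after sham (adjusted p = 0.409, limma) and 0.22 ± 0.079 averaged over surgery (adjusted p = 0.224, limma). The former was 0.17 without the 6 arrays of high Myl7. Lamp1, the main glycoprotein of the lysosomal membrane, was at 10.84 ± 0.07 and 10.94 ± 0.05 in control and 10.90 ± 0.10 and 11.04 ± 0.10 in cKO hearts after sham and TAC. Its difference with TAC averaged over genotype was 0.12 ± 0.046 (adjusted p = 0.34, limma). In cKO hearts it was 0.13 ± 0.065 (adjusted p = 0.731, limma), and 0.01 without the 6 arrays of high Myl7. Lamp2, loss of which causes a cardiomyopathy in humans, was at 10.07 ± 0.16 and 10.10 ± 0.06 in control and 10.21 ± 0.06 and 10.16 ± 0.04 in cKO hearts.

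Promoter sequences are shown for the lysosomal members described here because the 6 letters CACGTG form the core of the motif that TFEB and TFE3 bind. RefSeq sequences on GRCm38.p6, from 250 bases before to 50 after the start, matched 43 of the members, with 50 promoters. CACGTG, which reads the same on both strands, stood in 12 of these 50 (24.0%) and in 2349 of all 32851 promoters (7.15%). It stood in 5 of the 7 matched promoters of lysosomal enzymes, those of Arsa, Ctsd, Ctsl, Gaa and Plbd1. In Plbd1 it lay after the start, at base 44, near the end of the window, and in Arsa, Ctsd, Ctsl and Gaa before it. The longer TCACGTGA, which contains the core, stood in 3 of the members' promoters (6.0%), those of Atg3, Ctsd and Mcoln1, and in 0.974% of all. A form with 1 further base on each side, a G before and a C after it, stood in 0 of the 50 (0.0%) and in 0.326% of all. Windows of 30 bases follow, 5′ to 3′ on the gene's strand with the core in capitals: Plbd1 at chr6:136661844-136661873 (minus strand), Gaa at chr11:119267811-119267840 (plus), Arsa at chr15:89477423-89477452 (minus), Ctsl at chr13:64370739-64370768 (minus) and Lamp1, whose core stood 4 times in a run of 62 bases, at chr8:13159104-13159133 (plus).
Plbd1: gggcgaaggttggttcccaaggcCACGTGa
Gaa: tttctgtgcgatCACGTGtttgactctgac
Arsa: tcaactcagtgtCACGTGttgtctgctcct
Ctsl: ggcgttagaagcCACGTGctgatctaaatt
Lamp1: tggtccagcgccCACGTGatgccgactggc
A match describes letters, not binding, and its relation to the values of these genes was not tested.

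Plbd1, a phospholipase B-like protein of the lysosome at chr6:136612071-136662303, had the lowest p of the members. Its log2 values were 9.10, 8.86, 8.74 and 8.97 for control sham, 9.19, 9.21, 9.36 and 9.17 for control TAC, 8.74, 8.25, 8.68 and 8.83 for cKO sham and 8.61, 8.45, 8.58 and 8.72 for cKO TAC. All 4 control TAC arrays lay above all other arrays, and all 4 cKO TAC arrays lay below all 8 control arrays. Between the TAC groups 1.89% of all probe sets were lower with no overlap, and the sham groups overlapped. With TAC in control hearts 2.27% were higher with no overlap. The difference between cKO and control was -0.64 ± 0.11 after TAC (adjusted p = 0.265, limma), a ratio of 0.641, and -0.29 ± 0.11 after sham (adjusted p = 0.395, limma), or -0.17 without cKO sham replicate 2. Averaged over surgery it was -0.47 ± 0.08 (adjusted p = 0.0642, limma), a ratio of 0.723. That value lay between -0.52 and -0.40 under the alternatives, and its adjusted p between 0.0321 and 0.512. It was 0.0369 without control sham replicate 4. The difference after TAC lay between -0.69 and -0.60 under the alternatives, and its adjusted p between 0.0227 and 0.861 (limma). The lowest p came without cKO sham replicate 2, the array with the lowest Plbd1 value, at 8.25. That array is in neither TAC group and enters only through the shared spread. The difference stayed at -0.64, and its SE was 0.085.

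Arsa, the sulfatase that breaks down sulfatides, was also highest in control TAC hearts. It was at 4.74, 4.88, 4.86 and 5.08 for control sham, 5.41, 5.13, 5.10 and 5.29 for control TAC, 5.02, 5.03, 4.97 and 5.22 for cKO sham and 5.0, 4.98, 4.73 and 4.73 for cKO TAC. These values are low: the median of all probe sets was 4.85 to 4.975 per array, and the filter was at 4.37. The control TAC arrays overlapped with neither control sham nor cKO TAC. Of all probe sets, 2.27% were higher with TAC in control hearts with no overlap. Between the TAC groups 1.89% were lower in cKO with no overlap. TAC against sham was 0.34 ± 0.10 in control hearts (adjusted p = 0.462, limma) and -0.20 ± 0.10 in cKO hearts (adjusted p = 0.731, limma), the latter -0.34 without the 6 arrays of high Myl7. The interaction was -0.54 ± 0.14, with an unadjusted p of 0.00156 (limma; adjusted p = 1.0), where 3.7% of all probe sets had an unadjusted p under 0.05. Plbd1 was the other member under that limit, at -0.35 ± 0.16 (unadjusted p 0.0442, limma). The comparisons of control TAC with control sham and with cKO TAC share the control TAC arrays.

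Gaa, the acid glucosidase that breaks down glycogen in the lysosome and is deficient in Pompe disease, ran opposite to Plbd1 between genotypes. It was at 8.29, 8.99, 8.93 and 9.05 for control sham, 8.62, 8.99, 9.09 and 8.68 for control TAC, 9.28, 9.09, 9.23 and 9.34 for cKO sham and 9.12, 9.02, 9.25 and 9.16 for cKO TAC. All cKO sham arrays lay above all control sham arrays, as 2.95% of all probe sets did. After TAC only control replicate 3, at 9.09, reached the cKO range. The difference averaged over surgery was 0.36 ± 0.10 (adjusted p = 0.177, limma). After sham it was 0.42 ± 0.15 (adjusted p = 0.379, limma), and 0.24 without control sham replicate 1.

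**Figure D3:**
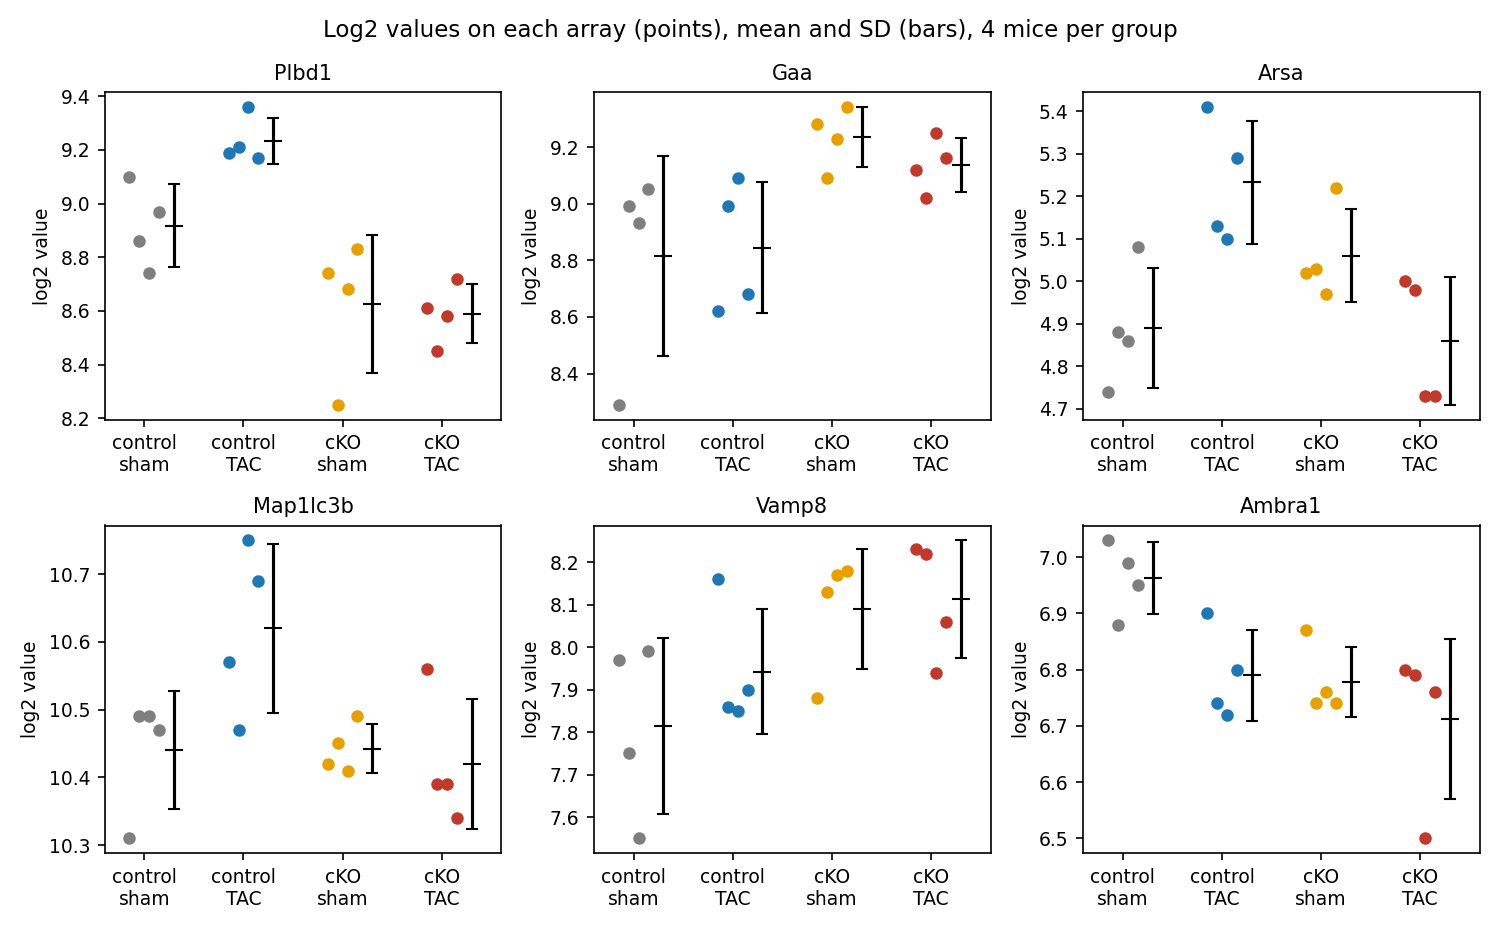
Log2 values (vertical axes) of Plbd1, Gaa, Arsa, Map1lc3b, Vamp8 and Ambra1 on each array (points), with the mean and SD of each group (bars, 4 mice each); each panel has its own axis range. Plbd1 and Arsa are highest in control TAC hearts, and Gaa in cKO sham hearts lies between 9.09 and 9.34, above all control sham arrays.

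All 8 lysosomal enzymes were above 0 with TAC in control hearts, with a median of 0.20, where 54.5% of all probe sets were above 0, and 4 of 8 were in cKO hearts, with a median of 0.03, where 51.6% were. The median in control hearts was 0.11 without control TAC replicate 4, with all 8 above 0; in cKO hearts 1 of 8 was above 0 without the 6 arrays of high Myl7, with a median of -0.13. The mean of the 8 was 8.47, 8.51, 8.52 and 8.60 for control sham, 8.68, 8.67, 8.69 and 8.82 for control TAC, 8.58, 8.50, 8.63 and 8.70 for cKO sham and 8.76, 8.79, 8.52 and 8.49 for cKO TAC. The control groups did not overlap, while the cKO TAC arrays had 2 values above, 1 within and 1 below the cKO sham range. Whether the effect of TAC on this mean differs between genotypes was not tested.

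The cathepsins are the main proteases of the lysosome. Ctsb was at 10.00 ± 0.07 and 10.06 ± 0.06 in control and 10.03 ± 0.02 and 10.12 ± 0.10 in cKO hearts after sham and TAC, and Ctsd at 10.95 ± 0.08 and 11.08 ± 0.14 in control and 11.08 ± 0.17 and 11.04 ± 0.10 in cKO hearts. Ctss, abundant in macrophages, had the widest spread within groups of all 51 genes, an SD of 0.334. Its values were 6.79, 6.41, 6.60 and 6.94 for control sham, 6.87, 6.78, 6.53 and 7.48 for control TAC, 6.72, 6.32, 6.76 and 6.70 for cKO sham and 6.95, 7.46, 6.56 and 6.53 for cKO TAC. One array of each TAC group stood high, control replicate 4 and cKO replicate 2. Ctsl was at 9.19, 9.25, 9.51 and 9.27 for control sham, 9.56, 9.58, 9.42 and 9.76 for control TAC, 9.43, 9.69, 9.60 and 9.51 for cKO sham and 10.27, 10.01, 9.53 and 9.23 for cKO TAC. Averaged over genotype TAC gave 0.24 ± 0.12 for Ctsl (adjusted p = 0.434, limma) and 0.24 ± 0.15 for Ctss (adjusted p = 0.548, limma), and the SD of Ctsl within groups was 0.26. The value of Ctsl was 0.15 without cKO TAC replicate 1 and 0.11 without the 6 arrays of high Myl7. That of Ctss was 0.14 without cKO TAC replicate 2, 0.15 without control TAC replicate 4 and 0.055 without the 6 arrays. Hexa, a subunit of the enzyme that breaks down gangliosides, was at 8.62 ± 0.17 and 8.79 ± 0.21 in control and 8.61 ± 0.09 and 8.71 ± 0.28 in cKO hearts after sham and TAC.

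Markers of macrophages, a cell type rich in lysosomes, were high on some of the same arrays. Of 20 markers 18 passed the filter, Aif1 and Ccr2 did not, and 17 of the 18 were above 0 with TAC averaged over genotype, with a median of 0.36; without the 6 arrays of high Myl7 the count was 14 and the median 0.20. Their mean was 6.44 to 7.04 for control sham, 6.74 to 7.38 for control TAC, 6.44 to 6.73 for cKO sham and 6.66 to 7.37 for cKO TAC. The highest arrays were again control TAC replicate 4 and cKO TAC replicate 2, the 2 arrays of highest Ctss. Control sham replicate 1 went the other way. Its macrophage mean was the highest of its group, at 7.04, while its lysosomal enzyme mean, at 8.47, and its Ctsl, at 9.19, were the lowest of the 16 arrays. All 12 fibroblast markers were above 0 with TAC too, with a median of 0.34, or 0.20 without cKO TAC replicate 2. The part of these cells in the values of the lysosomal enzymes was not tested. Between genotypes 5 of the 18 macrophage markers were above 0 averaged over surgery, with a median of -0.08, and 0 of the 10 endothelial markers, with a median of -0.17, beside the lower Plbd1.

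**Figure D4:**
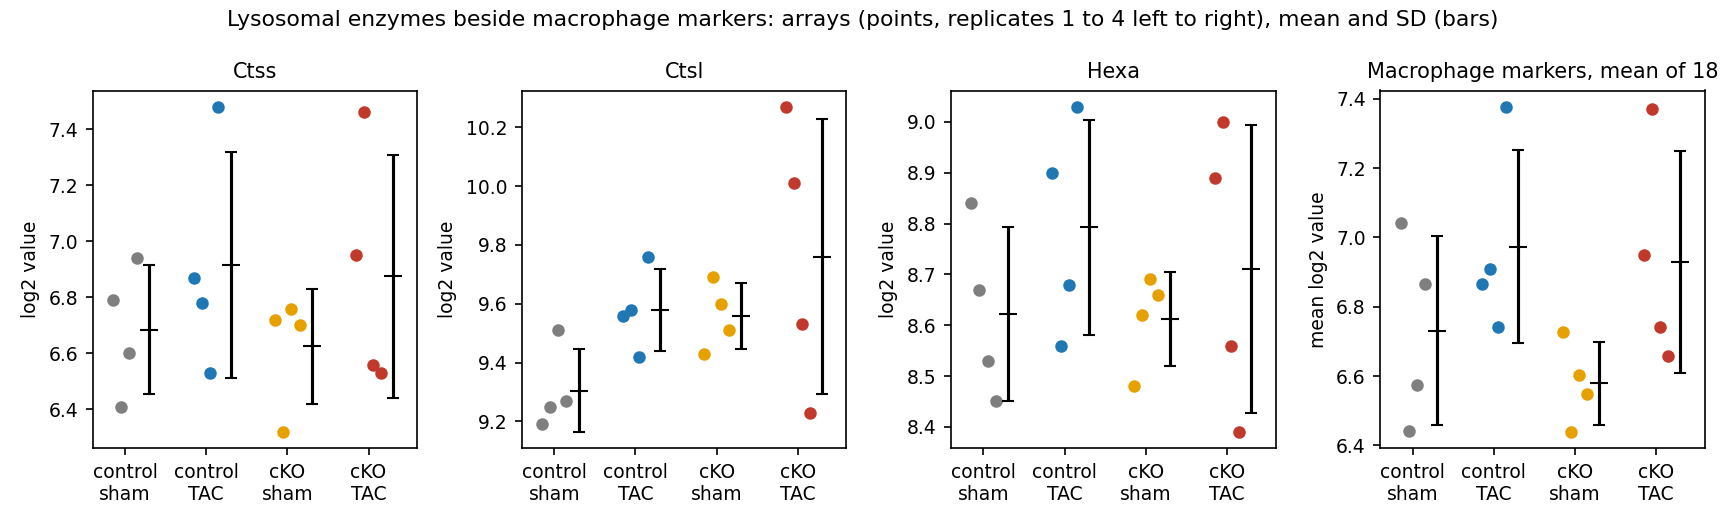
Log2 values (vertical axes) of Ctss, Ctsl and Hexa and the mean log2 value of 18 macrophage markers on each array (points, replicates 1 to 4 from left to right), with the mean and SD of each group (bars, 4 mice each). Control TAC replicate 4 and cKO TAC replicate 2 are the highest arrays of both Ctss (7.48 and 7.46) and the macrophage mean (7.38 and 7.37). Control sham replicate 1 has a macrophage mean of 7.04 and the lowest Ctsl, at 9.19.

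None of the 3 regulators passed the test. Tfeb was at 7.34 ± 0.10 and 7.34 ± 0.06 in control and 7.46 ± 0.12 and 7.48 ± 0.05 in cKO hearts after sham and TAC (mean ± SD over 4 mice each). Its 4 cKO TAC arrays, at 7.44 to 7.55, lay above the 4 control TAC arrays, at 7.25 to 7.38, as 2.38% of all probe sets did. The difference was 0.13 ± 0.074 after TAC (adjusted p = 0.717, limma) and 0.12 ± 0.053 averaged over surgery (adjusted p = 0.286, limma). Tfe3, its relative, ranged from 6.39 to 6.79 and Mcoln1, the calcium channel of the lysosome, from 8.56 to 8.94 over the 16 arrays, with group means of 6.57 to 6.70 and 8.68 to 8.80.

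In all, 19 of the 51 genes had an unadjusted p under 0.05 (limma) in at least 1 of the 7 comparisons, and 32 in none, with log2 differences of -0.23 to 0.28. The share of all probe sets under that limit in at least 1 comparison is not given here. In single comparisons it was 3.7% to 14.9%, and nothing particular to these genes is read from the count of 19. Besides Ctss and Ctsl, the widest spread within groups was that of Stx17, the SNARE protein of the autophagosome, with an SD of 0.267, Bnip3 with 0.236 and Gabarapl1, an ATG8 gene, with 0.224. Besides Gabarap, the narrowest was that of Ctsb with 0.0693, Bnip3l with 0.0782, Ulk2 with 0.0788 and Lamp1 with 0.0852. Of the 51 genes 15 had a wider spread than the median of all probe sets.

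Other genes of the pathway, listed by function, also held no member past the test. Of 32 further lysosomal hydrolases and their helpers, 30 were above 0 with TAC averaged over genotype, with a median of 0.15, where 53.7% of all were above 0. Of the 32, 14 had an unadjusted p under 0.05 upward against 0 downward, where 7.24% and 4.8% of all probe sets did. The smallest p values among them were those of Grn, the precursor of lysosomal granulins, at 0.34 ± 0.092 (adjusted p = 0.233, limma), and Lgmn, the protease legumain, at 0.23 ± 0.066 (adjusted p = 0.237, limma). Among 20 further lysosomal membrane genes 5 were higher and 2 lower at that limit, led by Cd68 at 0.50 ± 0.15 (adjusted p = 0.245, limma) and Laptm5 at 0.44 ± 0.14 (adjusted p = 0.257, limma), of which Cd68 is also 1 of the macrophage markers. Among 27 upstream kinases and nutrient sensors 2 were higher and 2 lower, with Flcn, a regulator of lysosomal mTORC1 signalling, at -0.24 ± 0.067 (adjusted p = 0.233, limma) and Sesn1, a stress-induced inhibitor of mTORC1, at -0.29 ± 0.089 (adjusted p = 0.257, limma); without the 6 arrays of high Myl7 they were at -0.15 and -0.19. Of 10 further transcriptional regulators 9 were below 0, including Ppargc1a, the coactivator of mitochondrial genes, at -0.43 ± 0.16 (adjusted p = 0.314, limma), which was -0.20 without those 6 arrays and -0.23 without the 3 sham arrays of high Atf3, and Zkscan3 at -0.28 ± 0.085 (adjusted p = 0.257, limma).

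Between genotypes, 14 of 16 subunits and partners of the V-ATPase, the pump that acidifies the lysosome, were above 0 averaged over surgery, with a median of 0.12, and 5 had an unadjusted p under 0.05 upward, where 8.24% of all probe sets did. Without the 6 arrays of high Myl7, 12 were above 0, with a median of 0.048. Atp6ap1 was at 0.21 ± 0.061 (adjusted p = 0.175, limma) and Atp6v0a1 at 0.24 ± 0.078 (adjusted p = 0.201, limma). Rragd, a GTPase that brings mTORC1 to the lysosome, had the lowest p of these lists. Its log2 values were 8.57, 8.67, 8.65 and 8.88 for control sham, 8.71, 8.73, 8.95 and 8.68 for control TAC, 9.0, 9.11, 9.11 and 9.27 for cKO sham and 9.14, 8.66, 9.03 and 9.02 for cKO TAC. The sham groups did not overlap, which held upward for 2.95% of all probe sets. After TAC 1 cKO array, replicate 2, lay below all control arrays. The difference averaged over surgery was 0.31 ± 0.073 (adjusted p = 0.129, limma). Of the 32 hydrolases 24 were above 0 (17 without the 6 arrays of high Myl7 and 19 without control sham replicate 1), with 6 higher and 0 lower at an unadjusted p under 0.05, among them Ppt1 at 0.23 ± 0.066 (adjusted p = 0.177, limma) and Fuca1 at 0.25 ± 0.078 (adjusted p = 0.195, limma). Of the 22 further tethering and fusion genes 18 were above 0, with Vps33a at 0.18 ± 0.058 (adjusted p = 0.195, limma) and Vps16 at 0.17 ± 0.058 (adjusted p = 0.206, limma), both subunits of the HOPS tethering complex. Beside these values, 11 of the 13 cardiomyocyte markers were above 0 between genotypes, with a median of 0.05, and 4 of the 5 atrial markers, with a median of 0.24. The cardiomyocyte marker Myl2 was below 0, at -0.42 ± 0.039, and passed the test (adjusted p = 0.000232, limma). All 12 fibroblast markers were above 0, with a median of 0.11. Without cKO TAC replicate 2, 1 of the 5 atrial and 4 of the 12 fibroblast markers were above 0. The part of these cells was not tested.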

How the data were processed

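Total RNA of 16 mouse hearts was measured on Affymetrix arrays, 1 per mouse. The authors deposited log2 values per probe set; MAS5, with no version, is named in the submitters' processing notes, and how arrays were scaled to each other is not stated there. The base of the log was checked from the values: base e would place the highest at 1706577, above the scanner's maximum of 65536. Any pair of arrays differed in at least 97.42% of probe sets, values being equal only if identical as deposited. From these values limma 3.58.1 (R 4.3.3) fitted 4 group means over all 16 arrays, with an intensity trend, for probe sets with a mean above the 40th percentile (4.37); a call is an adjusted p under 0.05. The fit was tested on simulated data, where it missed part of the smaller changes and in single draws called more unchanged probe sets than its threshold allows. Gene names came from the platform's annotation (21789 probe sets with 1 symbol, 1621 with several, 12146 unlisted and unnamed here), and the probe set of highest mean stood for a gene. Levels of different probe sets were not compared. Counts of genes without overlap use single arrays.

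The text names 15 key genes, every member past the test, for each comparison the members with an unadjusted p under 0.05 (filled to 4 by the smallest p), the 5 of largest and 5 of smallest spread, and at most 2 genes of smallest p from each further list. The members and lists were chosen with earlier results of these data known. Of 24 pairs of arrays of equal replicate number, 6 had a correlation of their deviations above 0.1 (-0.205 to 0.193). Pairs of unequal number were not computed, so these values do not decide whether equal numbers pair the arrays. Alternatives were normalization, filter, trend, arrays fitted, array weights, a replicate block, the choice of probe set and each array left out; leaving out the 6 arrays of high Myl7 or the 3 sham arrays of high Atf3, the other Bnip3 probe set, and counts of the lists with arrays left out, were chosen after seeing the data.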

Additional observations from a re-analysis of the deposited data

Results flagged for a closer look

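In 22 of the 204 sets of 4 arrays (51 genes in 4 groups), 1 array stood apart by more than Dixon's critical value for the gap over the range; chance gives about 1 in 20. Control sham replicate 1 was the lone array for 6 genes, each time the lowest: Ulk1 at 7.70, Pik3r4 at 6.37, Map1lc3b at 10.31, Sqstm1 at 9.97, Stx17 at 7.17 and Gaa at 8.29. That array held the lowest of the 16 values for 17 of the 51 genes, and no other array for more than 6. Control sham replicate 3 was high for Bnip3l, at 11.62.

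Control TAC replicate 1 stood apart for Rab7 at 9.77, Lamp1 at 10.86 and Tfeb at 7.25, all low, and for Vamp8 at 8.16, high. Control TAC replicate 3 was low for Gabarapl2 at 10.76 and Tfe3 at 6.61, and replicate 4 for Lamp2 at 10.01. In the cKO sham group, replicate 1 was high for Ambra1 at 6.87 and low for Vamp8 at 7.88, replicate 2 low for Ctss at 6.32, replicate 3 high for Wipi1 at 8.97 and replicate 4 low for Atg7 at 6.33. In the cKO TAC group, replicate 2 was low for Wipi2 at 7.15 and Stx17 at 7.54, and replicate 3 for Ambra1 at 6.50. The causes were not tested.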

How the results depend on the processing

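The 70 fold changes examined gave 1847 values under the alternatives, of which 1837 kept their direction and their side of the threshold. The opposite sign was taken 5 times, for TAC in cKO hearts: Bnip3 was at -0.016 with array weights, -0.14 without cKO TAC replicate 1, -0.043 without cKO sham replicate 2 and -0.32 without the 6 arrays, and Map1lc3b at 0.0042 without cKO TAC replicate 4; leaving out single arrays gave -0.14 to 0.17 for Bnip3 and -0.069 to 0.0042 for Map1lc3b. The other 5 were Plbd1, which passed the test for cKO against control averaged over surgery with quantile normalization (-0.51), a filter at the 60th percentile (-0.47), probe sets averaged per gene (-0.47) and without control sham replicate 4 (-0.46), and after TAC without cKO sham replicate 2 (-0.64). Members called then numbered 1, and 0 to 1 when single arrays were left out.

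Counts of all probe sets called moved as follows. cKO against control after sham, 5: 0 with median centring, the 60th percentile, probe sets averaged per gene, and without the 6 or the 3 arrays; 3 with no trend or only the groups compared; 1 with array weights; 0 to 27 leaving out single arrays (27 without control sham replicate 4). After TAC, 1: 2 with quantile normalization or array weights; 0 with no trend, only the groups compared, and without the 6 or the 3 arrays; 1 to 2 leaving out single arrays. Averaged over surgery, 4: 8 with quantile normalization or probe sets averaged per gene, 9 with the 60th percentile, 2 with median centring or no trend, 1 with no filter or without the 6 arrays; 1 to 81 leaving out single arrays (81 without control sham replicate 4). TAC in control hearts, 0: 5 with no filter, 1 with only the groups compared or without the 3 arrays, 0 to 2 leaving out single arrays. TAC in cKO hearts, 0: 1 with only the groups compared, 0 to 1 leaving out single arrays. TAC averaged over genotype, 0: 1 with no filter, 0 to 1 leaving out single arrays. The causes were not tested. With the replicate block the counts were 0 between genotypes after sham and 2 averaged over surgery. Whether equal numbers pair the arrays is not known.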
